A study of Mus musculus with 15 samples.

Results

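The 10 genes described here encode surface or secreted ligands through which an antigen-presenting cell tells a T cell, or a natural killer cell, to respond or to hold back. They are *Cd80*, *Cd86*, *Cd83*, *Icosl*, *Cd274*, *Pdcd1lg2*, *Cd276*, *Lgals9*, *Pvr* and *Slamf7*. They were taken by gene symbol from the 20089 complete gene entries of the expression table, by a rule that uses no expression value, although earlier results of these data were known when the genes were chosen. All 10 were in the table, and all 10 passed the filter on low values used for testing. Expression was measured by RNA-seq of bone marrow-derived macrophages (BMDMs) from wild-type C57BL/6 mice, given M-CSF, the growth factor that keeps macrophages and their precursors alive, for 3 days by the labels. The 15 samples formed 5 groups, each of 3. Control cells had M-CSF alone, and the others were given RANKL (the cytokine that turns such precursors into bone-resorbing osteoclasts) for 4 h or 72 h, or LPS (a bacterial wall component sensed by TLR4) for the same times. Age and sex of the mice were not given in the labels. There was no M-CSF group of 72 h, so time in culture and the stimulus cannot be told apart in a comparison of a 72 h group with control. The labels do not say whether samples of a group came from separate cultures or animals, so p-values measure the spread between these samples, which may be technical.

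Values are FPKM, the fragments of a gene scaled to its length and to the depth of the library. Levels of different genes can be compared only so far as the lengths used are right, and these were not established here. Each library held 18306184 to 20330207 fragments on listed genes, and the fragments behind a member ranged from 3 for *Pdcd1lg2* in 1 library to 45295 for *Cd274*. Differences are given as log2 fold changes of FPKM + 0.1 with their standard error (SE) from limma, in 1 fit of all 5 groups over 11743 genes. A call required both a Benjamini-Hochberg adjusted p under 0.05 across the genes tested and a fold over 1.5 or less than 0.66, and "rose" and "fell" are used for such genes only. Of the marker genes of each stimulus, 9 of 10 osteoclast markers rose in RANKL 72 h and 10 of 10 LPS-response markers rose in LPS 4 h. Macrophage markers summed to between 6175 and 17692 FPKM in every library. LPS 72 h replicate 3 stood apart from the other libraries of its group, with a macrophage marker sum of 17692 FPKM against 6175 and 7970, a neutrophil marker sum of 1816 against 186 and 152, and a stromal marker sum of 524 against 113 and 115. Calls of members that change without it are given with and without it. The median tested gene itself moved, by -0.52 on the log2 scale in LPS 4 h, 0.16 in RANKL 72 h, 0.08 in LPS 72 h and 0.00 in RANKL 4 h against control, and fold changes below are to be read against these shifts. In such bulk samples, fewer cells of a type and less RNA per cell cannot be told apart.

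T cells need antigen on MHC molecules together with a second signal, which CD80 and CD86 give by binding CD28. The same pair of ligands also binds CTLA4, which holds T cells back. PD-L1 (encoded by *Cd274*) and PD-L2 (*Pdcd1lg2*) bind the inhibitory receptor PD-1, and ICOS ligand (*Icosl*) binds ICOS, a relative of CD28. B7-H3 (*Cd276*) belongs to the same B7 family. Galectin-9 (*Lgals9*) is a sugar-binding protein and a ligand of TIM-3, the poliovirus receptor (*Pvr*, CD155) binds TIGIT, CD96 and the activating receptor CD226, and SLAMF7 binds itself on neighbouring leukocytes. In macrophages and dendritic cells several of these ligands are known to be induced by microbial products and interferons through NF-kappaB, AP-1 and STAT or IRF factors. Osteoclasts arise from the same precursors and share cytokines with T cells.

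Because factors of those families respond to LPS and RANKL, the 250 bases before the RefSeq transcription start of each member (GRCm38.p6) were searched on both strands for their binding letters. RefSeq promoters were at hand for 7 of the 10 members, and none was at hand for *Cd86*, *Cd83* and *Pvr*. A match was found in *Cd80*, *Slamf7* and *Lgals9*, and the 120 bases that hold it (from position -150 to -31 before the start) are shown 5′ to 3′ on the strand of the gene, with the match in capitals.
*Cd80*, chr16:38458783-38458902, plus strand: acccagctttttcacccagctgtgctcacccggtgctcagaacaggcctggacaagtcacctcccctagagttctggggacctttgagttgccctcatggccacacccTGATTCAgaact
*Slamf7*, chr1:171649030-171649149, minus strand: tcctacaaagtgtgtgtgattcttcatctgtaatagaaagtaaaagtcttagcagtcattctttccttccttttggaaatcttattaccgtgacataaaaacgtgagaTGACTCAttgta
*Lgals9*, chr11:78984955-78985074, minus strand: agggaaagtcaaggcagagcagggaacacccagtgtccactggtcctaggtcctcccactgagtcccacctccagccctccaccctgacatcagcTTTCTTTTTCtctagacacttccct

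*Cd80* and *Slamf7* each held the AP-1 letters TGANTCA, at positions -42 to -36 in both. These letters occur in 6.75% of all 32851 promoters of the same length. GENCODE M21 begins *Cd80* at 38455561 and *Slamf7* at 171653035, upstream of the RefSeq starts used here. Both windows thus lie inside the genes as GENCODE annotates them. *Lgals9* held the letters of an interferon-stimulated response element, searched as GAAA, 2 free bases and GAAA, on the opposite strand at positions -55 to -46, and 2.98% of all promoters hold them. The kB letters, searched as GGG, 2 free bases and TTTCC (1.41% of promoters), and the STAT letters TTCNNNGAA (7.02%) were found in none of the 7 windows, and *Cd274*, *Icosl*, *Pdcd1lg2* and *Cd276* had no match at all. The AP-1 and STAT letters read the same on both strands, and no matches overlapped. A match is a stretch of letters and no evidence of binding, and a missing match says nothing about the factor. Base composition differed widely, with a GC content of 77.6% in the *Cd276* window and 38% in that of *Slamf7*, against a median of 52.4% over all promoters. Of the 250 bases, 250 in the *Cd276* window, 185 in that of *Cd274* and 66 in that of *Icosl* lie in exons that GENCODE M21 annotates, so these windows are in part or wholly transcribed sequence.

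In control cells the 10 genes ranged from 0.307 to 442 FPKM. *Lgals9* was highest, with 442, 358 and 279.7 FPKM in replicates 1 to 3, and took 66.2 to 72.6% of the summed FPKM of the 10 genes. Next came *Cd274* and *Slamf7*, whose control ranges of 42.2 to 110.5 and 44.1 to 66.6 FPKM overlap. *Pvr* (10.5 to 12.1 FPKM), *Icosl* (7.32 to 11.3), *Cd86* (5.63 to 13.3), *Cd83* (5.16 to 6.18) and *Cd80* (3.77 to 5.23) formed a middle group in which the ranges of neighbours in this order overlap. *Cd276* (1.47 to 2.24 FPKM) was lower than all of these, and *Pdcd1lg2* (0.307 to 0.654 FPKM, from 21 to 48 fragments) lowest. The plot of FPKM by sample shows how the stimuli reorder them.

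**Figure D1:**
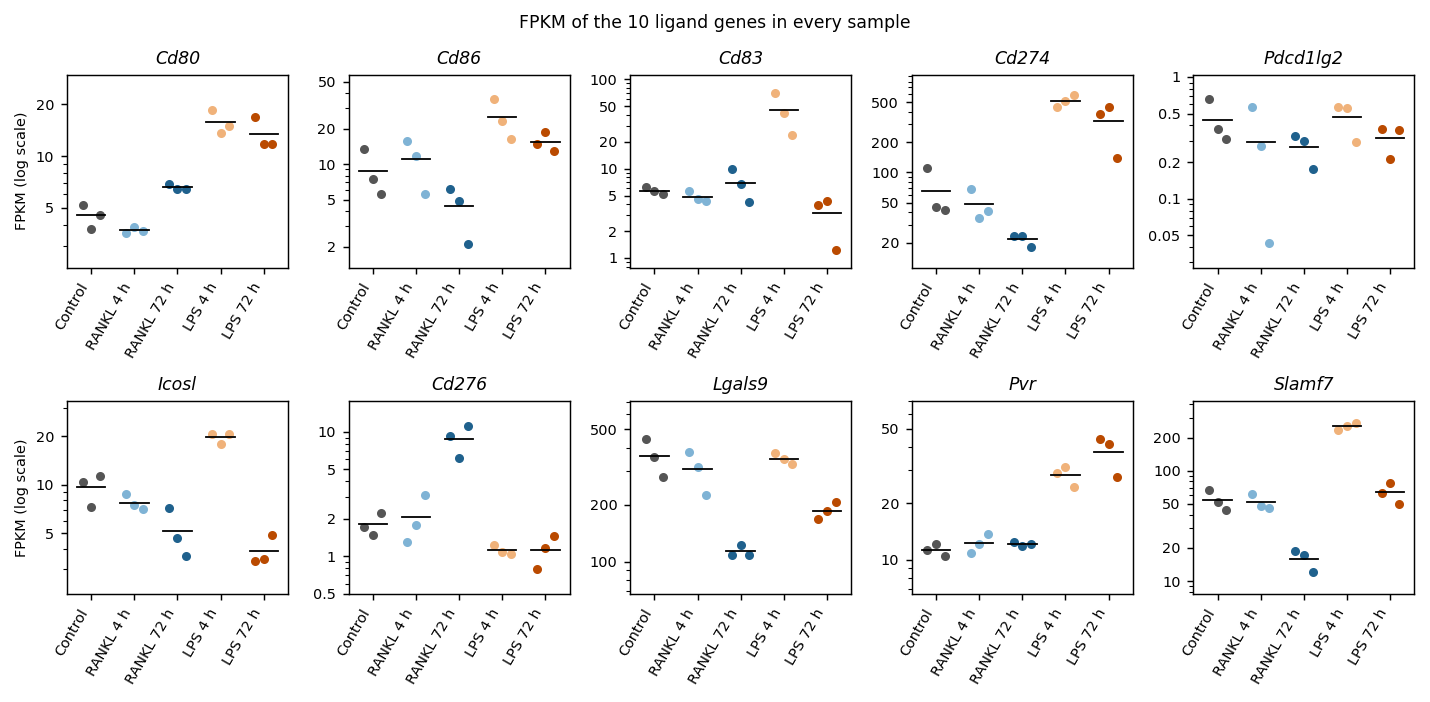
FPKM of each of the 10 ligand genes (log axis, 1 panel per gene) in the 5 groups, with 1 point per sample in the order of replicates 1 to 3 and a bar at the group mean. *Cd274* is highest in LPS 4 h (447 to 587 FPKM), *Cd276* is high in RANKL 72 h alone (6.16 to 11.1 FPKM), and *Pdcd1lg2* stays under 0.7 FPKM in every sample.

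*Cd80* (GENCODE M21 on GRCm38, chromosome 16, 38455561 to 38496335, plus strand) rose under LPS at both times. It had 5.23, 3.77 and 4.58 FPKM in the control samples, 18.7, 13.6 and 15.03 in LPS 4 h and 17.0, 11.8 and 11.8 in LPS 72 h. Every LPS sample lay above every control sample, and the 2 LPS groups overlapped each other. The log2 fold change was 1.78 in LPS 4 h (SE 0.17, limma adjusted p = 1.57e-06), a 3.43-fold difference, and 1.55 in LPS 72 h (SE 0.17, limma adjusted p = 2.44e-05). With RANKL the samples had 3.59, 3.90 and 3.69 FPKM at 4 h and 6.87, 6.46 and 6.42 at 72 h, where all 3 again exceeded control. The RANKL 72 h difference of 0.54 from control (SE 0.17, limma adjusted p = 0.0267) passed the p threshold but stayed under the fold threshold, which it passed without control replicate 1 (0.65, limma adjusted p = 0.0252) and with FPKM rescaled to equal sums (0.66). Against RANKL 4 h, *Cd80* rose by a log2 fold change of 0.81 in RANKL 72 h (SE 0.17, limma adjusted p = 0.00334). The entry for this gene carries a predicted RefSeq transcript.

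*Cd86* (chromosome 16, 36603869 to 36666081, minus strand), the other ligand of CD28, lies on the same chromosome and had a wider spread within groups. Control samples held 13.3, 7.46 and 5.63 FPKM, and LPS 4 h samples 35.8, 23.3 and 16.2, all above control. Its log2 fold change in LPS 4 h was 1.52 (SE 0.45, limma adjusted p = 0.00991). LPS 72 h gave 14.8, 18.6 and 12.8 FPKM, overlapping control, with a log2 fold change of 0.87 (95% interval -0.09 to 1.84, limma adjusted p = 0.144). RANKL gave 15.7, 11.7 and 5.53 FPKM at 4 h and 6.16, 4.88 and 2.12 at 72 h. In RANKL 72 h the value was below that of the same-numbered control sample in each of the 3 pairs, but the groups overlapped and the log2 fold change of -1.03 (SE 0.45, limma adjusted p = 0.0967) was not called. With the replicate number as a block *Cd86* was called lower in RANKL 72 h (limma adjusted p = 0.00457). Without the block it fell from RANKL 4 h to RANKL 72 h by 1.31 on the log2 scale (SE 0.45, limma adjusted p = 0.0419), a call lost on leaving out RANKL 4 h replicate 1 (-0.99), RANKL 4 h replicate 2 (-1.201), RANKL 72 h replicate 2 (-1.45) or RANKL 72 h replicate 3 (-0.86), and also with no filter on low values, only the groups compared, no trend or limma voom.

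Dendritic cells express *Cd86* as well, and the summed FPKM of 8 dendritic cell markers moved with the replicate number. The sums were 38.1, 24.4 and 18.5 FPKM in control, 33.7, 24.2 and 15.2 in RANKL 4 h and 44.1, 25.6 and 15.2 in LPS 4 h, with replicate 1 highest in each as it was for *Cd86*. At 72 h they were 21.1, 27.6 and 12.8 FPKM with RANKL and 5.67, 5.02 and 3.70 with LPS. *Itgax* was the largest part of the RANKL 72 h sum, with a mean of 16.6 FPKM against 11.1 in control. The mean of *Cd209a* was also higher there (0.390 against 0.136 FPKM). Means of the other markers were lower than control, among them *Ccr7* (1.26 against 8.03 FPKM) and *Siglech* (0.294 against 2.82). In LPS 72 h, where this sum was lowest, *Cd86* was 12.8 to 18.6 FPKM. Of the 8 markers, 5 fell in LPS 72 h, 3 in RANKL 72 h and 1 in LPS 4 h, and none rose in these comparisons. Their part in the *Cd86* values was not tested.

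**Figure D2:**
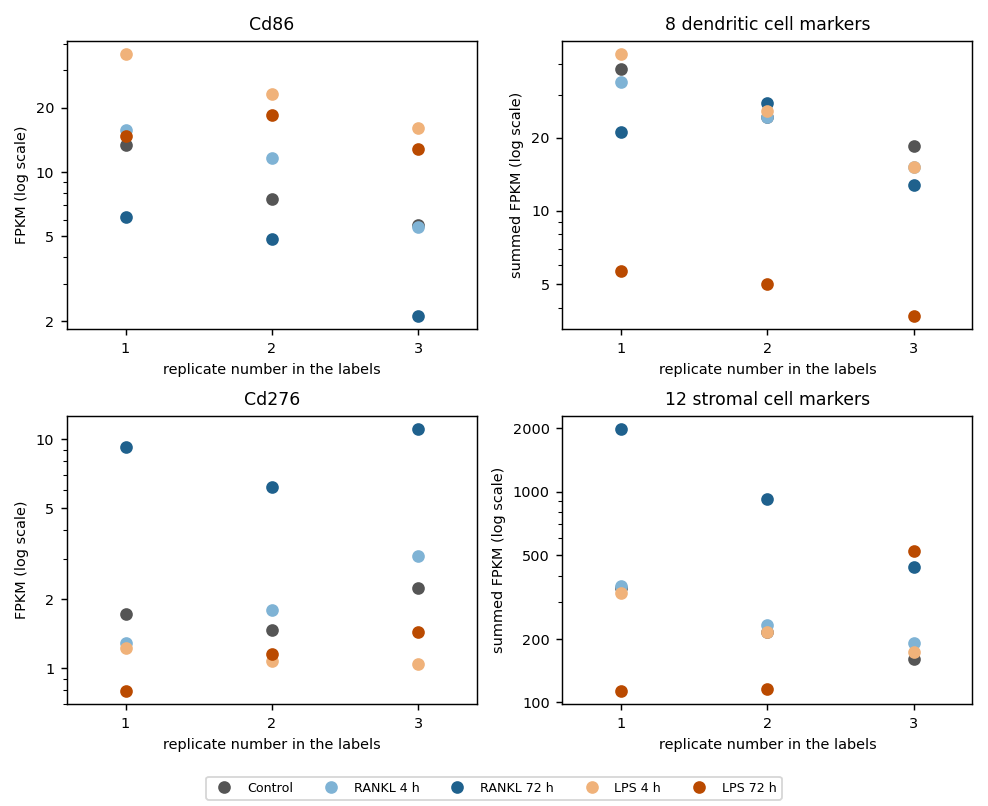
FPKM of *Cd86* and *Cd276* (left) and summed FPKM of 8 dendritic cell and 12 stromal cell markers (right) on log axes, by the replicate number in the labels, with 1 point per sample coloured by group. Replicate 1 is highest for *Cd86* in 4 of the 5 groups and for the dendritic sum in control, RANKL 4 h and both LPS groups, whereas the RANKL 72 h stromal sum is highest in replicate 1 (1984 FPKM) and *Cd276* in replicate 3 (11.1 FPKM).

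*Icosl* (chromosome 10, 78069302 to 78083913, plus strand) was higher than control early under LPS and lower late under both stimuli. Control samples had 10.4, 7.32 and 11.3 FPKM. In LPS 4 h all 3 samples were higher, at 20.8, 17.9 and 20.8 FPKM (log2 fold change 1.05, SE 0.23, limma adjusted p = 0.00167). In LPS 72 h all 3 were lower than any control sample, at 3.35, 3.44 and 4.87 FPKM, and the log2 fold change was -1.29 (SE 0.23, limma adjusted p = 0.000909). The fall from LPS 4 h to LPS 72 h was thus 2.34 on the log2 scale (SE 0.23, limma adjusted p = 1.71e-06), about 5-fold with a ratio of 0.198. RANKL 4 h left 8.73, 7.49 and 7.03 FPKM, and RANKL 72 h 7.20, 4.68 and 3.62, every one under the lowest control sample. In RANKL 72 h *Icosl* fell by 0.93 on the log2 scale against control (SE 0.23, limma adjusted p = 0.00929). Its difference between RANKL 72 h and RANKL 4 h, -0.63, was called only with the replicate number as a block (limma adjusted p = 0.0456), without RANKL 72 h replicate 1 (-0.89), with samples centred on the median gene (-0.84) or at an unadjusted p (0.0182). B cells, which also carry ICOS ligand, were traced by 8 markers whose sum was 18.9 to 25.2 FPKM in control, 5.08 to 7.29 in RANKL 72 h, 3.21 to 14.0 in LPS 4 h and 0.530 to 2.37 in LPS 72 h. The sum was lower in LPS 4 h, where *Icosl* rose, and its part in the 72 h values was not tested.

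*Cd83* (chromosome 13, 43784775 to 43803132, plus strand) encodes a marker of mature dendritic cells that stabilises MHC class II and CD86 on the surface. It had the sharpest course in time of the 10. Levels of 6.18, 5.65 and 5.16 FPKM in control became 70.8, 42.5 and 23.7 in LPS 4 h and 3.88, 4.31 and 1.24 in LPS 72 h. Even the lowest LPS 4 h sample was several times the highest control, and all 3 LPS 72 h samples were below control. *Cd83* rose by a log2 fold change of 2.86 in LPS 4 h (SE 0.44, limma adjusted p = 0.000107) and fell by 3.86 from there to LPS 72 h (SE 0.44, limma adjusted p = 5.43e-06). The LPS 72 h difference from control, -1.004, was not called (SE 0.44, limma adjusted p = 0.0934). It ran from -1.32 to -0.456 with 1 replicate left out. RANKL 4 h samples had 5.64, 4.57 and 4.34 FPKM and RANKL 72 h samples 9.93, 6.74 and 4.23, spread around control with a log2 fold change of 0.22 at 72 h (95% interval -0.74 to 1.17). At 72 h *Cd83* was called higher with RANKL than with LPS (1.22, SE 0.44, limma adjusted p = 0.0377), although the 2 groups touched at 4.23 and 4.31 FPKM. That call was lost without LPS 72 h replicate 3 (0.67), RANKL 72 h replicate 1 (0.93) or RANKL 72 h replicate 2 (1.202), with no filter on low values, with samples centred on the median gene, with only the groups compared, and by limma voom on fragments (adjusted p = 0.0734).

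*Cd274*, which encodes PD-L1 (chromosome 19, 29367455 to 29388095, plus strand), rose at both LPS times. Its control samples had 110.5, 45.2 and 42.2 FPKM, and its LPS 4 h samples 447, 511 and 587. The log2 fold change was 3.10 in LPS 4 h (SE 0.42, limma adjusted p = 3.40e-05), or 8.58-fold. LPS 72 h samples had 383, 443 and 140 FPKM, all above control, with a log2 fold change of 2.27 (SE 0.42, limma adjusted p = 0.00102). The low value is that of LPS 72 h replicate 3, the library that stands apart. From LPS 4 h to LPS 72 h the 3 values were all lower without overlap, but the difference of -0.83 was not called (SE 0.42, limma adjusted p = 0.0930). Without LPS 72 h replicate 3 it was -0.31 and not called. It was called without LPS 72 h replicate 2 (-1.14) and with samples centred on the median gene (-1.48). Under RANKL the course was downward, with 68.5, 35.3 and 41.8 FPKM at 4 h and 23.3, 23.5 and 18.0 at 72 h. The latter lay below every control sample, and *Cd274* fell by 1.47 on the log2 scale (SE 0.42, limma adjusted p = 0.0172). That call was lost without control replicate 1, the highest control sample (-1.02, limma adjusted p = 0.0861), and without RANKL 72 h replicate 3 (-1.34, limma adjusted p = 0.0590). Against RANKL 4 h the difference was -1.11 (SE 0.42, limma adjusted p = 0.0591), and it was called with the replicate number as a block (limma adjusted p = 0.0313). An antisense transcript is annotated over the locus, and whether counting used strand is not given in the sources used here.

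*Pdcd1lg2*, the gene of PD-L2, begins 22824 bases beyond the end of *Cd274* on the same strand of chromosome 19 (29410919 to 29471161). The main fit called it in no comparison. It was called lower in RANKL 4 h than in LPS 4 h without RANKL 4 h replicate 1 (-1.27, limma adjusted p = 0.0231). That call was also made with samples centred on the median gene, and with the replicate block and no LPS 72 h group. Its samples had 0.654, 0.371 and 0.307 FPKM in control, 0.568, 0.271 and 0.0434 in RANKL 4 h, 0.329, 0.300 and 0.174 in RANKL 72 h, 0.571, 0.559 and 0.290 in LPS 4 h and 0.371, 0.213 and 0.367 in LPS 72 h. All pairs of groups overlapped. The fragments behind a value numbered 3 to 48, and RANKL 4 h replicate 3 held the 3. In LPS 4 h the log2 fold change was 0.08 with a 95% interval of -0.91 to 1.08 (limma adjusted p = 0.889), so a change of up to about 2-fold either way was not detectable at this depth and spread. In that comparison its neighbour *Cd274* rose 8.58-fold. A long antisense gene, A930007I19Rik, is annotated over *Pdcd1lg2*.

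*Cd276*, the gene of B7-H3 (chromosome 9, 58524298 to 58555437, minus strand), was the one member to rise in RANKL 72 h. Control samples had 1.72, 1.47 and 2.24 FPKM, RANKL 4 h samples 1.29, 1.80 and 3.09, and RANKL 72 h samples 9.21, 6.16 and 11.1. The RANKL 72 h samples lay above all 12 others. Its log2 fold change was 2.205 against control (SE 0.31, limma adjusted p = 0.000201), a 4.61-fold difference, and 2.09 against RANKL 4 h (SE 0.31, limma adjusted p = 0.000309). All LPS samples were under the lowest control sample, with 1.22, 1.08 and 1.05 FPKM at 4 h and 0.793, 1.15 and 1.44 at 72 h. The LPS 4 h difference of -0.63 (SE 0.31, limma adjusted p = 0.0898) was called lower with the replicate number as a block (limma adjusted p = 0.0442), and was -0.067 with samples centred on the median gene. The LPS 72 h difference of -0.65 was not called (SE 0.31, limma adjusted p = 0.115). At 4 h *Cd276* was called higher with RANKL than with LPS (0.74, limma adjusted p = 0.0484). This call was lost without any 1 of 5 of the 6 libraries compared, with values from 0.42 without RANKL 4 h replicate 3 to 0.81 without LPS 4 h replicate 1, and with samples centred on the median gene (0.18). It was also lost with a pseudocount of 1 (0.49, limma adjusted p = 0.0691), no filter on low values (limma adjusted p = 0.0737), equal sums, only the groups compared, or limma voom.

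Stromal cells also express *Cd276*, and their markers moved in the same group. Of 12 stromal markers, 7 rose in RANKL 72 h and none fell, where 16.6% of all genes tested rose and 7.54% fell. Their sum was 1984, 925 and 440 FPKM there against 350, 215 and 160 in control. *Col1a1* (mean 391 FPKM) and *Col1a2* (300) were its largest parts in RANKL 72 h. Means of *Dcn* (0.700 against 1.63 FPKM in control) and *Lum* (0.146 against 0.187) were lower there, and those of the other markers were higher. The library with the largest stromal sum was RANKL 72 h replicate 1, while *Cd276* was highest in replicate 3, which had the smallest. In LPS 72 h replicate 3 the stromal sum was 524 FPKM, above that of RANKL 72 h replicate 3, with *Cd276* at 1.44 FPKM against 11.1. The summed osteoclast markers in RANKL 72 h were 3168, 1721 and 5474 FPKM, beside *Cd276* values of 9.21, 6.16 and 11.1. The part of stromal cells or of osteoclasts in the *Cd276* values was not tested. The gene Gm10657 overlaps *Cd276* on the other strand.

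*Lgals9* (chromosome 11, 78962974 to 78984946, minus strand) was lower at 72 h under both stimuli. From 442, 358 and 279.7 FPKM in control it went to 108, 123 and 109 in RANKL 72 h and to 168, 184 and 205 in LPS 72 h. Neither 72 h group reached the lowest control sample, and the RANKL samples were below the LPS samples. The falls were 1.65 on the log2 scale in RANKL 72 h (SE 0.19, limma adjusted p = 4.74e-05) and 0.93 in LPS 72 h (SE 0.19, limma adjusted p = 0.00194). At 4 h the values were 382, 315 and 225 FPKM with RANKL and 374, 349 and 328 with LPS, within or next to the control range. Each RANKL 4 h value was below that of the same-numbered control sample, with a log2 fold change of -0.24 (95% interval -0.64 to 0.17). The LPS 4 h difference was -0.02 (95% interval -0.42 to 0.39), and its sign turned with samples centred on the median gene, where it was 0.55 (limma adjusted p = 0.0770). Direct comparison at 72 h put *Lgals9* lower with RANKL than with LPS by 0.71 on the log2 scale (SE 0.19, limma adjusted p = 0.00726).

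*Pvr* (chromosome 7, 19903578 to 19921160, minus strand) rose under LPS and not under RANKL. It was steady in the absence of LPS, with 11.2, 12.1 and 10.5 FPKM in control, 10.9, 12.1 and 13.7 in RANKL 4 h and 12.4, 11.9 and 12.2 in RANKL 72 h. LPS samples had 28.9, 31.2 and 24.4 FPKM at 4 h and 43.9, 41.6 and 27.7 at 72 h. All 6 exceeded all 9 others. The log2 fold change was 1.31 in LPS 4 h (SE 0.16, limma adjusted p = 1.52e-05) and 1.71 in LPS 72 h (SE 0.16, limma adjusted p = 9.46e-06). In RANKL 72 h it was 0.11 with a 95% interval of -0.23 to 0.46, and -0.11 with samples centred on the median gene. The gain from LPS 4 h to LPS 72 h, 0.40, was under the fold threshold (SE 0.16, limma adjusted p = 0.0411) and passed it without LPS 72 h replicate 3 (0.61, limma adjusted p = 0.000841). *Pvr* was the member that, with *Cd80* and *Cd274*, rose at both LPS times. An antisense gene and a processed pseudogene, Gm16251 and Gm16184, overlap it on the other strand.

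*Slamf7* (chromosome 1, 171632403 to 171653035, minus strand) lies in the cluster of SLAM family genes. Its control samples had 66.6, 51.6 and 44.1 FPKM, and its LPS 4 h samples 235, 257 and 269, a log2 fold change of 2.25 (SE 0.20, limma adjusted p = 7.73e-07). In LPS 72 h it had 63.1, 77.2 and 50.4 FPKM, overlapping control (0.23, 95% interval -0.19 to 0.65), a fall of 2.01 from LPS 4 h (SE 0.20, limma adjusted p = 1.42e-06). RANKL 4 h samples had 60.9, 47.6 and 46.4 FPKM, inside the control range. RANKL 72 h samples had 18.6, 17.1 and 12.2 FPKM, all below every other sample of the series, and *Slamf7* fell by 1.75 on the log2 scale against control (SE 0.20, limma adjusted p = 4.02e-05). RANKL 72 h was lower than LPS 4 h by a log2 fold change of -4.00 (SE 0.20, limma adjusted p = 4.30e-09), a comparison that called 64.4% of all genes tested, 53.4% higher and 10.9% lower. Gm37787 is annotated antisense to it.

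Of the 4 comparisons with control, LPS 4 h called the most ligands. In it, 7 of the 10 rose (*Cd274*, *Cd83*, *Slamf7*, *Cd80*, *Cd86*, *Pvr* and *Icosl*) and none fell. Of all genes tested, 48.1% were called in this comparison, 8.43% higher and 39.7% lower. With samples centred on the median gene, 1871 genes were higher and 1529 lower, in place of 990 and 4660, and 7 members were called as before. The median log2 fold change of the 10 was 1.41 beside -0.52 over all genes tested. The 7 that rose include both stimulatory (*Cd80*, *Cd86*, *Icosl*) and inhibitory (*Cd274*) ligands of the CD28 family of receptors.

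Late LPS split them. In LPS 72 h *Cd274*, *Pvr* and *Cd80* rose and *Icosl* and *Lgals9* fell, 5 of 10 called where 27.4% of all genes tested were called, 13% higher and 14.4% lower (1522 and 1690 genes, or 1212 and 1887 with samples centred on the median gene). The same 5 calls were made without LPS 72 h replicate 3. All 10 neutrophil markers fell in LPS 72 h, with sums of 152 to 1816 FPKM against 7913 to 24348 in control, and their part in these values was not tested. The median log2 fold change of the 10 was -0.06, beside 0.08 over all genes. From LPS 4 h to LPS 72 h, 4 members fell (*Cd83*, *Icosl*, *Slamf7* and *Lgals9*) and none rose, where 58.1% of all genes were called, 13.9% lower and 44.2% higher. With samples centred on the median gene 7 members fell there, *Cd80* (-0.88), *Cd86* (-1.29) and *Cd274* (-1.48) joining, and 2209 genes were higher and 3224 lower in place of 5186 and 1631.

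In RANKL 72 h the movement was mostly down, with *Slamf7*, *Lgals9*, *Cd274* and *Icosl* falling and *Cd276* rising. Among all genes tested 24.2% were called, 7.54% lower and 16.6% higher, that is 1951 higher and 886 lower, or 1167 and 1428 with samples centred on the median gene. The members' median log2 fold change was -0.73, beside 0.16 over all genes. Of 10 neutrophil markers, 5 fell in RANKL 72 h, with sums of 1852 to 7461 FPKM against 7913 to 24348 in control, and their part in these values was not tested. In RANKL 4 h none of the 10 was called by limma, none at an unadjusted p, and none by limma voom on recovered fragments, where 0.119% of all genes tested were called, 0.111% higher and 0.00852% lower. Every member's adjusted p there was 1 in the fit without a block, and the lowest unadjusted p was 0.142, for *Cd80* (-0.26, 95% interval -0.63 to 0.10). Over the alternative fits, the block among them, the lowest limma adjusted p of a member was 0.506, for *Pdcd1lg2*. The widest interval was that of *Pdcd1lg2*, -1.67 to 0.32. Between RANKL 72 h and RANKL 4 h, *Cd276* and *Cd80* rose and *Slamf7*, *Lgals9* and *Cd86* fell, 5 of 10 called beside 23.3% of all genes, 16.4% higher and 6.83% lower.

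Set against each other at the same time, the stimuli differed for most members. At 4 h, 7 of 10 were lower with RANKL than with LPS, from -3.46 for *Cd274* to -1.196 for *Pvr*, and *Cd276* was higher, where 50% of all genes were called, 8.98% lower and 41% higher. With samples centred on the median gene 9 of 10 were lower and none higher, and 1580 genes were higher and 1905 lower in place of 4818 and 1054. Of these, the call of *Cd86* (-1.24, limma adjusted p = 0.0278) was lost without LPS 4 h replicate 1 (-0.94), LPS 4 h replicate 2 (-1.25) or RANKL 4 h replicate 3 (-0.81). At 72 h, 6 of 10 were lower with RANKL, with *Cd274* at -3.74 (SE 0.42, limma adjusted p = 1.05e-05), *Slamf7* at -1.99, *Cd86* at -1.90, *Pvr* at -1.60, *Cd80* at -1.01 and *Lgals9* at -0.71. *Cd276* (2.85, SE 0.31, limma adjusted p = 7.46e-06) and *Cd83* were higher. Over all genes tested 36.1% were called, 12.8% lower and 23.3% higher (2739 and 1506 genes higher and lower, or 2237 and 2045 with samples centred on the median gene). *Icosl*, which fell under both stimuli at 72 h, differed between them by 0.37 (95% interval -0.14 to 0.87). The change from 4 h to 72 h under LPS differed from that under RANKL for 4 of the 10 by limma's interaction term, *Cd83*, *Cd276*, *Icosl* and *Cd80*, and for 5 without LPS 72 h replicate 3, when *Pvr* was called as well (0.61, limma adjusted p = 0.00767). In this comparison 49.2% of all genes were called in the full set, 33.9% higher and 15.2% lower. The heat map of fold changes sets the comparisons side by side, and the 4 with control share its samples.

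**Figure D3:**
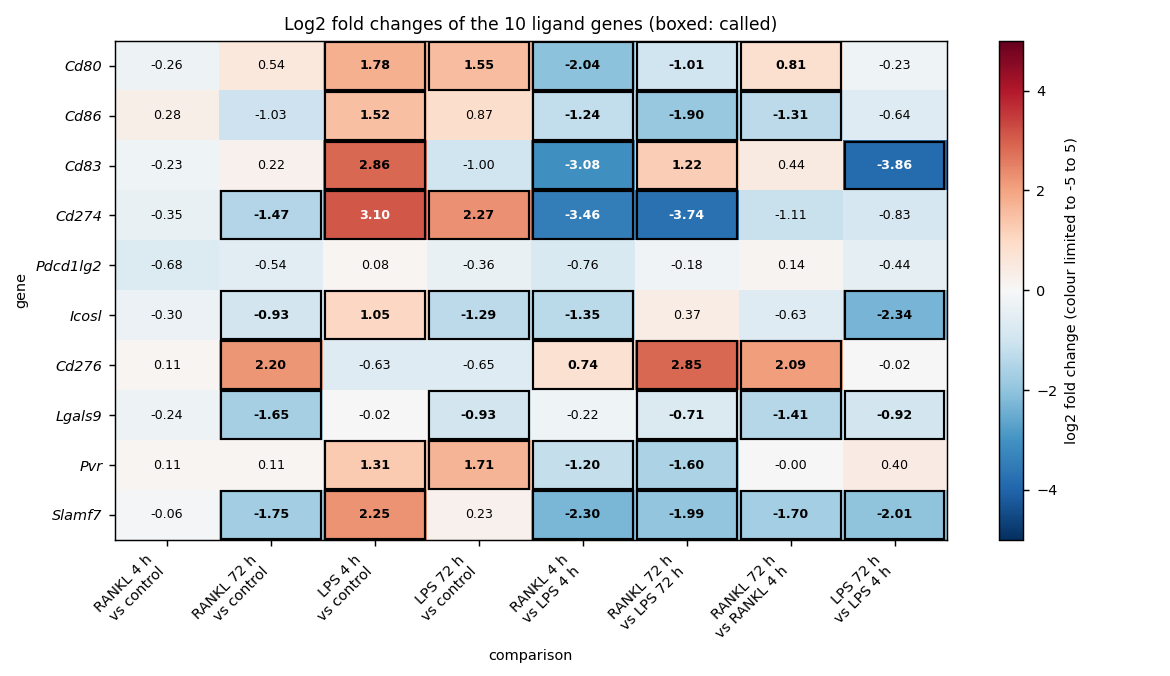
Log2 fold changes of FPKM + 0.1 for the 10 ligand genes (vertical) in 8 comparisons (horizontal), printed in each cell and coloured from blue (lower) to red (higher), with called values in bold and boxed. The LPS 4 h column holds 7 boxed rises, the RANKL 4 h column none, and the RANKL 72 h column 4 boxed falls and the rise of *Cd276*, 2.205.

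The balance of PD-L1 to the CD28 ligands was taken within each sample as *Cd274* over the sum of *Cd80* and *Cd86*. It was 5.95, 4.03 and 4.14 in control, 3.55, 2.27 and 4.53 in RANKL 4 h and 1.79, 2.08 and 2.11 in RANKL 72 h. LPS gave 8.20, 13.9 and 18.8 at 4 h and 12.04, 14.5 and 5.71 at 72 h. RANKL 72 h lay wholly below control, by a fold of 0.429, and LPS 4 h wholly above, by a fold of 2.78. By a two-sided exact permutation test both had p = 0.1, the smallest that 3 samples against 3 allow (Benjamini-Hochberg adjusted 0.171 over the 24 ratio comparisons made), so the design cannot reach 0.05. LPS 72 h overlapped control through its replicate 3 (exact permutation p = 0.2). *Cd80* over *Cd86* was 0.392, 0.506 and 0.812 in control and 1.12, 1.32 and 3.03 in RANKL 72 h (fold 3.03, two-sided exact permutation p = 0.1, adjusted 0.171). By FPKM, *Cd80* thus exceeded *Cd86* in all 3 RANKL 72 h samples and in no control sample, which depends on the gene lengths used. In the other groups this ratio was 0.229 to 0.667 in RANKL 4 h, 0.521 to 0.929 in LPS 4 h and 0.637 to 1.15 in LPS 72 h. The share of the members' summed FPKM held by *Cd274* was 9.17 to 16.5% in control, 36.3 to 45.6% in LPS 4 h and 30.7 to 56.4% in LPS 72 h. *Lgals9* went from 66.2 to 72.6% in control to 25.5 to 30.3% in LPS 4 h, with its own FPKM overlapping control.

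**Figure D4:**
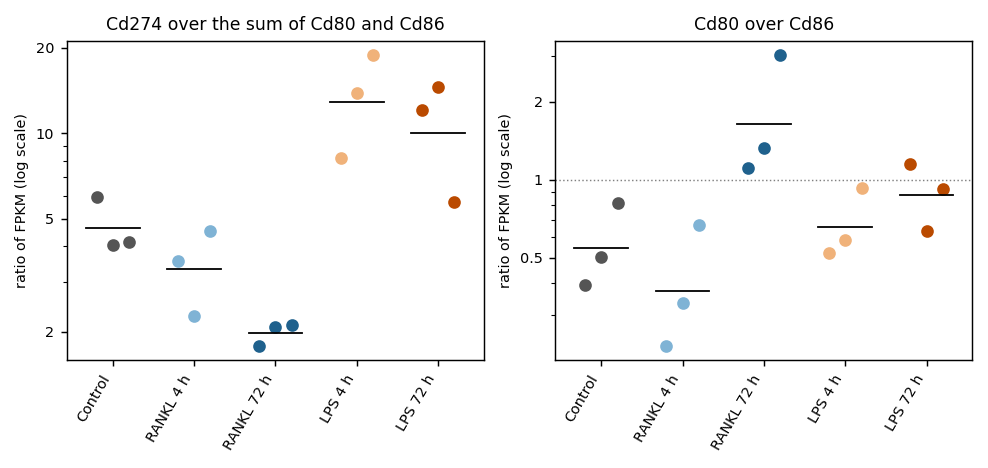
Ratio of FPKM within each sample (log axes) of *Cd274* to the sum of *Cd80* and *Cd86* (left) and of *Cd80* to *Cd86* (right), with 1 point per sample by group, a bar at the geometric mean and, at right, a dotted line at 1. At left the RANKL 72 h samples lie at 1.79 to 2.11, below all control samples, and the LPS 4 h samples at 8.20 to 18.8, above them. At right the RANKL 72 h samples are above 1, at 1.12 to 3.03.

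A wider list of other ligands and adhesion partners that T cells read was set beside the 10. The table held 33 of these genes and 28 were tested, while *Vsir* and *Vtcn1* were not analysed here. In LPS 4 h 11 of the 28 rose and 2 fell, where 8.43% of all genes tested rose and 39.7% fell, and their median log2 fold change was 0.16 beside -0.52 over all genes. The TNF family ligands and receptors led, 6 of 7 rising. *Tnfsf15* (TL1A, a ligand of DR3) went from 0.268 ± 0.141 to 58.6 ± 7.15 FPKM (SD over 3 samples of each group). Its log2 fold change was 7.37 (SE 0.30, limma adjusted p = 1.24e-09). *Cd40*, the receptor through which helper T cells license antigen-presenting cells, went from 11.6 ± 5.68 to 415 ± 30.7 FPKM (5.29, SE 0.44, limma adjusted p = 5.43e-07). *Tnfsf9* (4-1BB ligand), at 5.08, *Tnfsf4* (OX40 ligand), at 4.54, and the adhesion ligand *Icam1*, at 4.08, followed (limma adjusted p from 2.60e-08 to 3.09e-07). All 5 fell again from LPS 4 h to LPS 72 h, with log2 fold changes of -6.66 for *Tnfsf15*, -4.11 for *Cd40*, -3.67 for *Tnfsf4*, -3.46 for *Tnfsf9* and -3.32 for *Icam1* (limma adjusted p from 5.84e-09 to 4.58e-06). Like *Cd83*, *Icosl* and *Slamf7*, they were higher at 4 h than at 72 h under LPS.

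In RANKL 72 h, 7 of the 28 rose and 7 fell, where 16.6% of all genes tested rose and 7.54% fell. The nectin family, to which *Pvr* belongs by structure, had 4 of 5 members rising, *Nectin1* most (2.13, SE 0.36, limma adjusted p = 0.000735) from 0.223 ± 0.147 to 1.1997 ± 0.122 FPKM (SD over 3 samples of each group). *Nectin2* (1.002), which like *Pvr* binds CD226, *Nectin3* (1.02) and *Cadm1* (0.97) rose too, and *Pvr* itself did not (0.11). *Nectin3* was low and its groups overlapped, at 0.237 to 1.06 FPKM in RANKL 72 h against 0.172 to 0.277 in control. *Nectin4* was not called, at 5.03 to 8.39 FPKM against 5.46 to 15.8 in control. *Cd200*, a ligand that restrains myeloid cells, rose by a log2 fold change of 2.53 (SE 0.51, limma adjusted p = 0.00241). Of the 8 other SLAM family genes tested, 3 fell, namely *Slamf1* (-2.36), *Slamf8* (-2.24) and *Cd84* (-0.76), and 5 were not called, among them *Cd244* (0.85, limma adjusted p = 0.0546). *Slamf1* was low, at 0.0518 to 0.0904 FPKM in RANKL 72 h against 0.531 to 1.28 in control. Each change named for RANKL 72 h is larger than the shift of 0.16 of the median gene. *H2-T23*, the mouse Qa-1 heavy chain that presents peptides to natural killer receptors, fell by 1.81 on the log2 scale (SE 0.28, limma adjusted p = 0.000424), from 667 ± 225 to 186 ± 32.6 FPKM (SD over 3 samples of each group). In LPS 72 h 5 rose and 4 fell, close to the 13% and 14.4% of all genes tested, with *Slamf6* at 2.26 (SE 0.59, limma adjusted p = 0.00902) and, downward, *Nectin4* at -1.73 and *Lgals3* (galectin-3) at -1.64 (limma adjusted p = 0.00227 and 6.14e-05). In RANKL 4 h none of the 28 was called by limma.

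**Figure D5:**
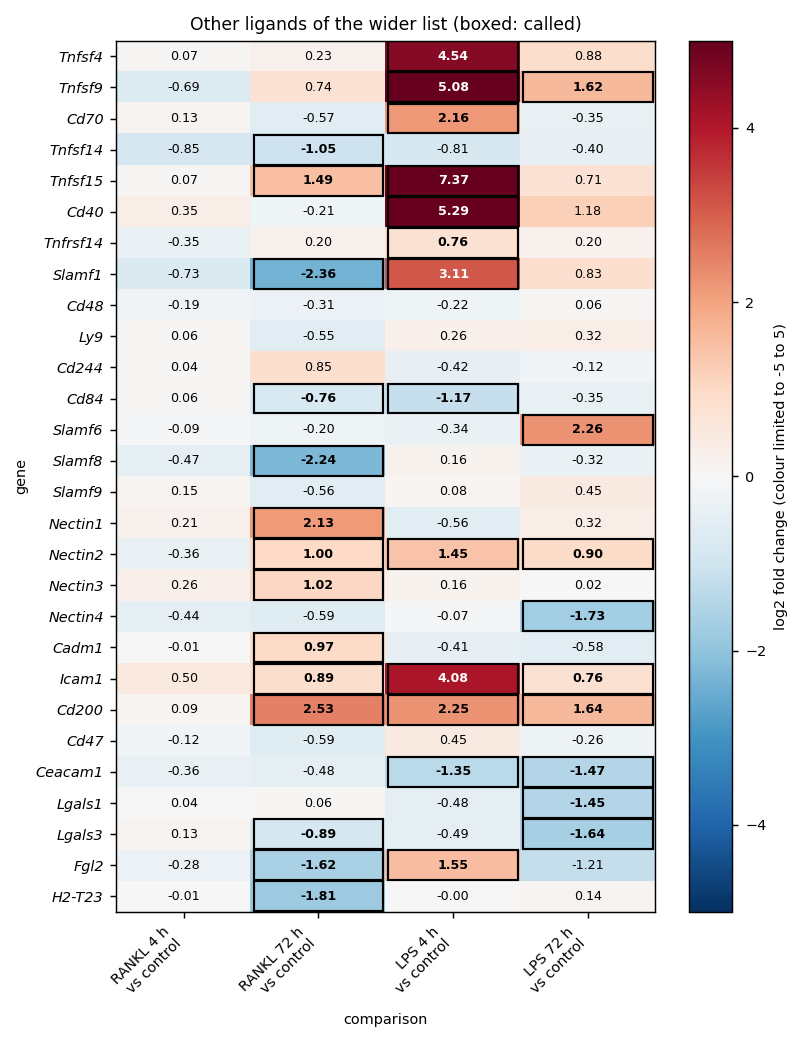
Log2 fold changes of FPKM + 0.1 against control for the 28 tested genes of the wider list of ligands (vertical) in the 4 comparisons with control (horizontal), printed and coloured from blue (lower) to red (higher), with called values in bold and boxed. LPS 4 h holds the largest rises, *Tnfsf15* at 7.37 and *Cd40* at 5.29, and RANKL 72 h holds rises of *Nectin1* (2.13) and *Cd200* (2.53) beside falls of *Slamf1* (-2.36) and *Slamf8* (-2.24).

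Genes that act on the ligands themselves were 4. *Cmtm4*, which with *Cmtm6* protects PD-L1 from degradation, fell by 1.504 in LPS 4 h (limma adjusted p = 0.000157), where *Cd274* rose, and rose by 1.81 in RANKL 72 h (limma adjusted p = 0.000175), where *Cd274* fell. *Cmtm6* was not called in either (0.10 and -0.20). *March1*, the ubiquitin ligase that takes CD86 and MHC class II off the surface, rose by 1.07 in LPS 4 h (limma adjusted p = 0.00143). *Rgmb*, a further partner of PD-L2, fell by 0.80 in LPS 4 h (limma adjusted p = 0.000199). In LPS 4 h the median tested gene itself moved by -0.52, and 39.7% of all genes tested fell and 8.43% rose.

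The receptors that T cells use to read these ligands were also in the table, 15 of them with 13 tested, at low summed levels of 12.4 to 48.8 FPKM per library. *Havcr2* encodes TIM-3, the receptor of galectin-9 and one also present on myeloid cells. It rose in RANKL 72 h (1.13, limma adjusted p = 0.0209) and fell in LPS 4 h by 1.08 (limma adjusted p = 0.0127), where the median gene moved by -0.52. *Tnfrsf9* (4-1BB) rose in RANKL 72 h (2.22, limma adjusted p = 0.00882) and LPS 72 h (1.70, limma adjusted p = 0.0285). Of the 13, 2 rose and 1 fell in RANKL 72 h, 4 fell in LPS 4 h, and 1 rose and 3 fell in LPS 72 h. Over all genes tested, 16.6% rose and 7.54% fell in RANKL 72 h, 39.7% fell in LPS 4 h, and 13% rose and 14.4% fell in LPS 72 h, so these shares are near or below the background apart from the falls in LPS 72 h. *Cd28* was lower in LPS 72 h (-2.10, limma adjusted p = 0.00215). T cells themselves were traced by 8 markers, whose sums were 10.1, 8.77 and 4.15 FPKM in RANKL 72 h against 4.98, 3.20 and 2.15 in control, and 1.49 to 5.48 in the other groups. Of the 7 tested, 1 rose in RANKL 72 h, and their part in the receptor values was not tested.

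Finally, the genes most like each member over the 15 samples were sought by Pearson's r of log2 values among the 9485 other tested genes that averaged 1 FPKM or more (9486 for *Pdcd1lg2*). These coefficients describe samples that share 5 groups, and no p is attached. *Cd274* was most like *Il12a* (r = 0.986), *Cxcl3* (0.985) and *Il1a* (0.972), all encoding inflammatory cytokines. *Slamf7* was most like the chemokine gene *Ccl3* (0.983), then *Gadd45b* (0.975) and *Slc28a2* (0.972). *Lgals9* was most like 3 interferon-induced oligoadenylate synthetase genes, *Oas3* (0.986), *Oas1a* (0.985) and *Oas1g* (0.981), of which the last 2 may share reads. *Cd276* had *Dusp9* (0.974), *Sh3rf1* (0.974) and *Arsb* (0.971). *Pvr* had *Csf3* (0.957), which encodes G-CSF, *Pip5k1a* (0.955) and *Ptges* (0.953), and *Icosl* had *Selp* (0.957), *Paqr9* (0.946) and *Olr1* (0.942). For *Cd80* they were *Phlda1* (0.952), *Dtx2* (0.947) and *Met* (0.941), for *Cd86* *Phc2* (0.951), *Agtrap* (0.932) and *Spic* (0.931), and for *Cd83* *Arf4* (0.939), *Arl4a* (0.934) and *Mob3c* (0.930). *Pdcd1lg2* had *Gpr171* (0.846), *P2ry13* (0.796) and *Sertad3* (0.785). Among the members, *Cd80* was most like *Pvr* (0.885) and *Cd274* most like *Slamf7* (0.880), while *Cd276* ran opposite to *Cd86* (-0.835).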

How the data were processed

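Gene expression was deposited as FPKM, which the authors computed with StringTie and Ballgown, and they tested differences with edgeR. The submitters' processing notes list StringTie and the builds GRCm38.p4 and mm10. The aligner, annotation and use of strand are not given in the sources used here. The table held 20089 complete entries, and genes after *Tti2* in alphabetical order were not analysed here.

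Within a gene, FPKM divided by a common unit gave whole fragments, to within 0.01, for 14485 of 14485 genes above 0 in at least 3 samples (100%). Fragments per sample numbered 18306184 to 20330207, and any error from counting alone is a minimum.

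Tests used limma 3.58.1 (R 4.3.3; lmFit, eBayes with trend) on log2(FPKM + 0.1), which understates changes of low genes, over 11743 genes averaging 0.1 FPKM or more, in 1 fit of 5 groups. Calls required an adjusted p under 0.05 together with a fold over 1.5 or less than 0.66. Tested on simulated data for LPS 4 h against control (11743 genes), the fit called 54 of 100 genes changed by 1 on the log2 scale, 92 of 100 changed by 2 and 10 of 11543 unchanged genes. Ratios were compared by two-sided exact permutation tests.

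Labels number the replicates without saying what equal numbers share. Deviations from the group means of same-numbered samples, over 9486 genes, correlated above 0.1 in every pair among the control, LPS 4 h and both RANKL groups (mean r from 0.21 to 0.76) but not with LPS 72 h (mean r from -0.13 to 0.08). The numbers were therefore taken to pair the first 4 groups, and blocked values stand beside results whose call they change.

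The 10 members and all gene lists were chosen with earlier results of these data known. Named genes were the members, up to 5 genes of the wider, receptor and regulator lists per comparison by size of change among those called and averaging 1 FPKM or more in 1 group, and per member the 3 most alike genes. *Slamf1*, *Cd84*, *Nectin2*, *Nectin3*, *Cadm1*, *Havcr2* and the 4 genes that act on the ligands were named after their values were seen. Alternatives covered pseudocount, filter, scaling, groups fitted, block, trend, unadjusted p, limma voom and each replicate left out. The block without the LPS 72 h group was chosen after seeing the data. Positions are from GENCODE M21 (GRCm38) and promoters from RefSeq (GRCm38.p6). Python 3.11.15, numpy 2.4.6, pandas 2.3.3, scipy 1.17.1 and matplotlib 3.10.9 were used.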

Additional observations from a re-analysis of the deposited data

Results flagged for a closer look

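The change from 4 h to 72 h differed between the stimuli for 4 of the 10 ligands, by limma's interaction term (72 h minus 4 h under LPS less the same under RANKL), where 49.2% of all genes tested were called. Without LPS 72 h replicate 3 the same 4 were called and *Pvr* joined them (0.61, limma adjusted p = 0.00767). *Cd83* gave -4.30 on the log2 scale (SE 0.63, limma adjusted p = 9.58e-05), falling in time under LPS from 23.7 to 70.8 FPKM to 1.24 to 4.31 FPKM, with RANKL values of 4.34 to 5.64 and 4.23 to 9.93 FPKM. *Cd276* gave -2.11 (SE 0.43, limma adjusted p = 0.00119), rising under RANKL with an LPS difference of -0.02. *Icosl* gave -1.71 (SE 0.33, limma adjusted p = 0.000756), with time differences of -2.34 under LPS and -0.63 under RANKL. *Cd80* gave -1.03 (SE 0.24, limma adjusted p = 0.00264), with time differences of -0.23 under LPS and 0.81 under RANKL.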

How the results depend on the processing

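Of 1021 results recomputed under the alternatives other than leaving out a replicate, 968 kept their direction and side of the threshold, 28 passed it, 14 no longer did and 11 changed sign, and of 600 with a replicate left out the numbers were 556, 7, 17 and 20. The cause was not tested for any of them. With samples centred on the median gene, members called from LPS 4 h to LPS 72 h went from 4 to 7, and signs turned for *Cd83* (-0.00395) and *Pvr* (-0.11) in RANKL 72 h, *Lgals9* in LPS 4 h (0.55), *Pdcd1lg2* in RANKL 72 h against RANKL 4 h (-0.084), *Pvr* in LPS 72 h against LPS 4 h (-0.25), and *Cd274* (-0.15) and *Pvr* (-0.030) in the interaction. Signs also turned with a pseudocount of 1 for *Pdcd1lg2* (-0.012), by limma voom for *Pvr* (0.010) and with equal sums for *Pvr* (0.12) in RANKL 72 h against RANKL 4 h, and with equal sums for *Cd276* in LPS 72 h against LPS 4 h (0.029). None of these was called. Leaving out 1 replicate turned uncalled signs, with ranges in RANKL 4 h against control of -0.63 to 0.092 for *Cd274*, -0.19 to 0.10 for *Slamf7*, -0.21 to 0.39 for *Cd276* and -0.037 to 0.71 for *Cd86*; in LPS 4 h of -0.19 to 0.14 for *Lgals9* and -0.10 to 0.35 for *Pdcd1lg2*; in RANKL 72 h of -0.078 to 0.53 for *Cd83*; between the times of -0.20 to 0.20 for *Cd276* (LPS), -0.082 to 0.084 for *Pvr* (RANKL) and -0.46 to 0.65 for *Pdcd1lg2* (RANKL); in RANKL 72 h against LPS 72 h of -0.38 to 0.015 for *Pdcd1lg2*; and in the interaction of -0.029 to 0.80 for *Cd274* and -1.09 to 0.021 for *Pdcd1lg2*.

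With the replicate number as a block, *Cd86* was also called lower in RANKL 72 h and *Cd276* in LPS 4 h. *Cd274* and *Icosl* were then called lower in RANKL 72 h than in RANKL 4 h. Leaving the LPS 72 h group out of that fit also called *Pdcd1lg2* lower in RANKL 4 h than in LPS 4 h (limma adjusted p = 0.0443). In comparisons with LPS 72 h, which the numbers do not pair, the block called *Cd86* (limma adjusted p = 0.00958) and *Cd83* (0.0149) against control and *Cd86* against LPS 4 h (0.0232), and it changed no other call. Genes called in RANKL 4 h were 14, but 24 with the block, 55 with the block and no LPS 72 h group, 3 without the trend, 0 with only the groups compared, 301 at an unadjusted p and 1 to 15 with a replicate left out. Centring moved those called in LPS 4 h from 5650 to 3400 and in RANKL 4 h against LPS 4 h from 5872 to 3485. The fit of only the groups compared was not run for the interaction. Depth limits *Pdcd1lg2*, with 3 to 48 fragments per sample.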
